A study of Mus musculus with 12 samples.

Results

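The 7 NMDA receptor subunit genes of the mouse, *Grin1*, *Grin2a*, *Grin2b*, *Grin2c*, *Grin2d*, *Grin3a* and *Grin3b*, were followed across 12 brainstem RNA-seq libraries. They were chosen by gene symbol, as the members of the family, and are 7 of the 55418 genes in the deposited count table. All 7 had enough counts to be tested in every comparison. The mice were outbred CFW (Swiss Webster) pups, with no transgene or deletion. From P1 to P14 they received 2 subcutaneous injections per day of saline or of 15 mg/kg morphine, and the tissue collected at P15, 16 h after their final dose, was the brainstem, holding medulla and pons. The 4 groups were 3 saline females, 3 morphine females, 3 saline males and 3 morphine males, with 1 library per mouse. Pups of a litter were split between saline and morphine, but the labels do not give the dam, so mice of 1 litter may be present in several groups.

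NMDA receptors are glutamate-gated cation channels built as tetramers. Each holds GluN1 subunits, which bind the co-agonist glycine or D-serine, with GluN2 subunits, which bind glutamate, or with GluN3 subunits, which bind glycine. The channel opens fully only when agonist binding coincides with depolarisation, which lifts the block by magnesium, and it then admits calcium. During forebrain development GluN2B and GluN3A are early subunits and GluN2A is a later one. GluN2C is best known from cerebellar granule cells, GluN2D from the diencephalon and brainstem of young animals, and GluN3B from motor neurons. In the brainstem these receptors take part in respiratory and nociceptive transmission, and they have long been studied in opioid tolerance and withdrawal.

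A stretch of coding sequence is shown because it is where all 7 genes encode the same residues, so that it shows how far their bases differ. The longest run of amino acids that is identical in all 7 subunits is 7 residues long and lies in the third membrane segment, which lines the pore. Its 21 coding bases are given for each gene, 5′ to 3′ on the coding strand, from the longest protein-coding transcript of GENCODE M21 (GRCm38). Capitals mark a G or a C at the third position of a codon.
Grin1: taCactgcCaaCctGgcagcC
Grin2a: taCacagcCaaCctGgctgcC
Grin2b: taCactgcCaaCttagcCgcC
Grin2c: taCacGgcCaatctGgcagcC
Grin2d: tatacagcCaatctGgctgcC
Grin3a: taCacagcGaaCttGgctgct
Grin3b: taCacagcCaaCctGgcagct
Any pair of genes shares between 15 and 19 of these 21 bases, although the encoded residues are the same. The third positions hold a G or a C at 5 of 7 codons in *Grin1*, *Grin2a*, *Grin2b* and *Grin2c*. They do so at 4 in *Grin3a* and *Grin3b* and at 3 in *Grin2d*, so this stretch does not follow the GC content of the genes' transcripts given next. The stretches lie at chr2:25297202-25297222 for *Grin1*, chr16:9653450-9653470 for *Grin2a*, chr6:135772247-135772267 for *Grin2b*, chr11:115253752-115253772 for *Grin2c*, chr7:45854282-45854302 for *Grin2d* and chr4:49770473-49770493 for *Grin3a*, all on the minus strand. The stretch of *Grin3b* lies at chr10:79974639-79974659 on the plus strand. Over all annotated transcripts, the longest identical run of any pair of members was 34 bases, in *Grin2b* and *Grin2c*. This is shorter than the 100 bp reads.

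Over all annotated transcripts of a gene, each counted in full, the GC content was 58.4% for *Grin1*, 61.6% for *Grin2c*, 65.6% for *Grin2d* and 62.3% for *Grin3b*. It was 49.6% for *Grin2a*, 47.3% for *Grin2b* and 47.0% for *Grin3a*, against a median of 49.5% over the 19027 genes tested in the 12 mice. The first 4 are called GC-rich here and the other 3 lower-GC, a division made after their levels had been seen, and *Grin2a* stands at the middle of the tested genes (percentile 50.6). The GC-rich genes are short, with spans of 28.0 kb for *Grin1* (chr2:25291181-25319187), 18.1 kb for *Grin2c* (chr11:115249169-115267243), 46.5 kb for *Grin2d* (chr7:45831883-45878378) and 6.48 kb for *Grin3b* (chr10:79970715-79977190). The lower-GC genes are long, with spans of 428 kb for *Grin2a* (chr16:9567898-9995560), 460 kb for *Grin2b* (chr6:135713233-136173511) and 184 kb for *Grin3a* (chr4:49661611-49845744).

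Promoter sequences of 300 bases around the RefSeq start (GRCm38.p6), most of them upstream of it, were at hand for the 4 GC-rich members. Those of *Grin1* (chr2:25319138-25319437, minus strand) and *Grin2c* (chr11:115267194-115267493, minus strand) are shown because they are the windows of these 4 that hold the motif below. Capitals mark GGGCGG, the core of the GC box, which was searched on both strands with overlapping matches counted.
Grin1: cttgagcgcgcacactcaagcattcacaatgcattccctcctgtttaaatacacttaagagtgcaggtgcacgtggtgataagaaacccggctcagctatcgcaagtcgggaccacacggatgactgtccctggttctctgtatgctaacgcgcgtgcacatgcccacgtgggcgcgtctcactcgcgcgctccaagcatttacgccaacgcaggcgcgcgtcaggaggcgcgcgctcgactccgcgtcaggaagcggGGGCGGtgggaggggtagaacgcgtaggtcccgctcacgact
Grin2c: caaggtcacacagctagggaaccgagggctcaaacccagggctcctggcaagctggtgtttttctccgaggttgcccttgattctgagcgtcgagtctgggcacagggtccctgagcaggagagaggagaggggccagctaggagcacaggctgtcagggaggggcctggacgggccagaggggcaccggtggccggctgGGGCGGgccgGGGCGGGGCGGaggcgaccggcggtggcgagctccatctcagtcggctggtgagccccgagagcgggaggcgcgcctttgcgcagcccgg
The motif occurred 1 time in the window of *Grin1*, 3 times in that of *Grin2c*, and 0 times in those of *Grin2d* and *Grin3b*. The window of *Grin2d* (chr7:45866632-45866931, minus strand) lies inside the gene span given above. Its count therefore does not describe the sequence at the outer 5′ end of that span (45878378). It occurred in 35.66% of the 32851 promoters of the table.

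Between 27850565 and 48097947 counts per library fell on genes. Markers of brainstem neurons were expressed in every library, with a sum over 8 genes of 594 to 788 CPM (counts scaled to a common library size) after TMM normalisation. *Gabra6*, a gene of mature cerebellar granule cells, was detected at 19.1 CPM in morphine male 5, with 8.73 CPM as the highest value elsewhere. The library labelled morphine male 6 went against its label, with 380 CPM of *Xist* and 12.8 CPM of *Ddx3y*, which is 8.37% of the mean of the other 5 males. Its *Eif2s3y*, *Kdm5d* and *Uty* stood at 25.9%, 29.5% and 26.2% of the means of those males. It did not match the libraries labelled female either, which had at least 551 CPM of *Xist* and at most 0.734 CPM of *Ddx3y*. The cause was not tested. Results that include the library labelled morphine male 6 are given with and without it where a call changed. The libraries also differed in a trend with GC content. Across the 19027 genes, the correlation between a gene's deviation from its mean log2 CPM and its GC content was 0.58 in saline male 1, 0.68 in saline male 2 and 0.47 in the library labelled morphine male 6, was -0.67 in saline male 3, and lay between -0.51 and 0.11 in the other 8 libraries.

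*Grin1* encodes the subunit that every NMDA receptor needs. Its level was 77.8, 73.5 and 68.4 CPM in saline females 4, 5 and 6 and 68.0, 72.1 and 76.6 CPM in morphine females 1, 2 and 3. In saline males 1, 2 and 3 it was 115, 136 and 52.3 CPM, and in morphine males 4, 5 and 6 it was 97.1, 78.2 and 103 CPM. The female groups overlapped almost completely. Among males, saline males 1 and 2 were the highest of all 12 libraries and saline male 3 was the lowest, so that all morphine males fell between them.

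Of the GluN2 genes, *Grin2a* stood at 72.3, 78.5 and 85.0 CPM in the saline females and at 74.1, 73.9 and 60.3 CPM in the morphine females. It stood at 58.3, 52.7 and 79.8 CPM in the saline males and at 78.5, 80.7 and 59.9 CPM in the morphine males, numbered as above. The groups overlapped in both sexes, and saline males 1 and 2 were now the lowest of the 12 libraries. *Grin2b*, whose product carries the binding site of CaMKII, had 77.2, 88.8 and 109 CPM in saline females and 90.8, 90.3 and 71.5 CPM in morphine females. It had 69.1, 59.4 and 83.9 CPM in saline males and 113, 98.0 and 74.4 CPM in morphine males. Morphine males 4 and 5 were above all saline males, whereas the library labelled morphine male 6 was below saline male 3, and this library alone made the male groups overlap. The share of all genes that separate in males without this library was not computed. With all 6 mice it was 8.86%.

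*Grin2c* had 19.4, 16.5 and 15.5 CPM in saline females and 21.7, 17.8 and 19.0 CPM in morphine females. In saline males it had 34.4, 37.6 and 10.4 CPM, a 3.61-fold range within 1 group, and in morphine males 16.1, 22.1 and 26.0 CPM. *Grin2d* varied in a similar way, with 14.3, 13.5 and 11.0 CPM in saline females, 14.3, 14.02 and 18.3 CPM in morphine females, 19.9, 25.3 and 8.63 CPM in saline males and 16.1, 14.3 and 18.7 CPM in morphine males. For both genes the highest and the lowest library of the 12 were saline males, and the groups overlapped in each sex.

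The GluN3 genes differed widely in abundance. *Grin3a* was read at 109, 110 and 111 CPM in saline females and at 98.8, 111 and 103 CPM in morphine females. It was read at 89.0, 78.1 and 113 CPM in saline males and at 112, 98.2 and 94.8 CPM in morphine males. *Grin3a* thus varied least of the 7 genes, with a coefficient of variation of 10.7% over the 12 libraries. *Grin3b* rested on 9 to 114 counts per library. Its level was 0.465, 0.336 and 0.399 CPM in saline females, 0.462, 0.261 and 0.702 CPM in morphine females, 1.81, 2.44 and 0.307 CPM in saline males and 0.837, 0.493 and 1.12 CPM in morphine males. It varied most, with a coefficient of variation of 84.3%, and saline males 1 and 2 were again the highest.

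**Figure D1:**
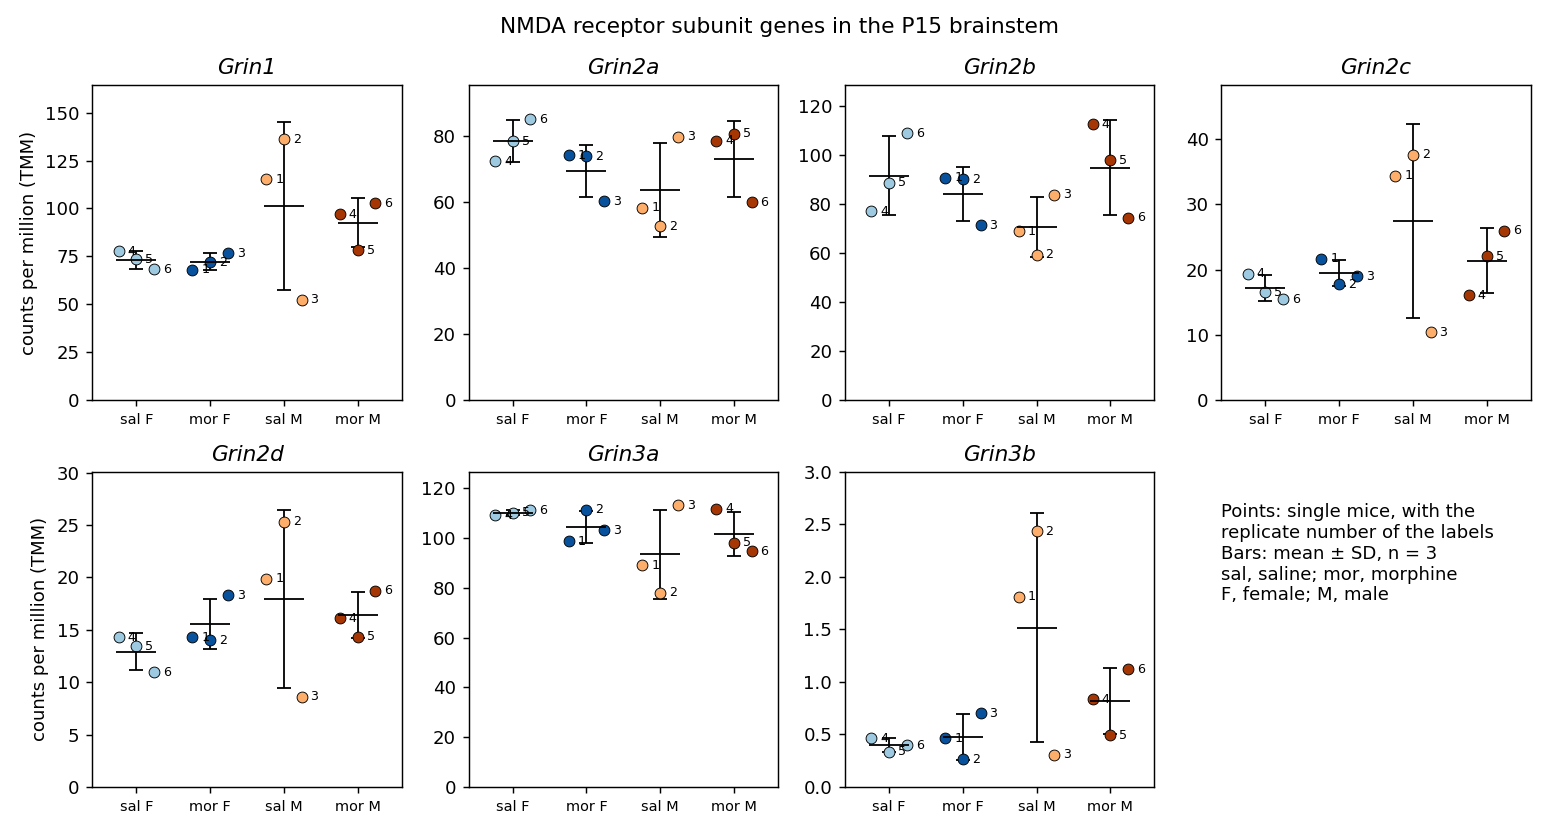
Level of each subunit gene in CPM (linear axis from 0) in the 4 groups, with 1 point per mouse marked by its replicate number and bars for the mean ± SD of 3 mice. Saline males 1 and 2 lie far above saline male 3 for Grin1 (115 and 136 against 52.3 CPM), Grin2c, Grin2d and Grin3b, and below it for Grin2a, Grin2b and Grin3a.

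Levels can be compared between genes only per length. Per kilobase of exon, the order of mean levels over the 12 libraries was *Grin1* (8.75 ± 2.43 CPM per kb, SD, n = 12), *Grin3a* (8.34 ± 0.896), *Grin2c* (4.24 ± 1.56), *Grin2a* (3.97 ± 0.590), *Grin2b* (3.44 ± 0.648), *Grin2d* (2.36 ± 0.661) and *Grin3b* (0.244 ± 0.205). *Grin1* exceeded *Grin3a* in 5 of 12 libraries and *Grin2c* exceeded *Grin2a* in 5 of 12, so neither pair differed beyond its spread. The other steps held in most libraries, since *Grin3a* exceeded *Grin2c* in 11, *Grin2a* exceeded *Grin2b* in 11, *Grin2b* exceeded *Grin2d* in 10 and *Grin2d* exceeded *Grin3b* in 12 of 12. The order depends on the length that is assumed. Per kilobase of the longest protein-coding transcript, a length chosen after the data were seen, *Grin1* came to 19.8 ± 5.50 CPM per kb and *Grin3a* to 13.7 ± 1.47, and *Grin2a* (4.86 ± 0.723) passed *Grin2c* (4.37 ± 1.61).

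The first comparison asked whether subunit expression differed after morphine exposure when females and males were pooled. None of the 7 genes passed the thresholds for differentially expressed genes, a p below 0.05 before adjustment together with a log2 fold change beyond 0.26 in either direction, in the quasi-likelihood test of edgeR with sex as a covariate. Of all 18608 genes tested, 1.19% passed. The log2 fold change (morphine minus saline, 6 mice each) was -0.07 ± 0.18 (SE) for *Grin1*, 0.01 ± 0.13 for *Grin2a*, 0.15 ± 0.15 for *Grin2b*, -0.09 ± 0.25 for *Grin2c*, 0.07 ± 0.21 for *Grin2d*, 0.02 ± 0.09 for *Grin3a* and -0.42 ± 0.45 for *Grin3b*. The 95% interval was narrowest for *Grin3a*, from -0.18 to 0.23, and widest for *Grin3b*, from -1.38 to 0.54. The number of members with an unadjusted p under 0.05 was 0, against 1.32% of all genes, and edgeR's exactTest and the Wald test of DESeq2 also called 0. An exact two-sided permutation test over the 924 ways of dividing 12 mice gave p = 0.359 for *Grin2b*, the smallest of the 7. The levels of the saline and morphine mice overlapped for every member, as they did for all but 0.0376% of the genes tested. With 12 bulk samples, fewer cells of a type and less RNA per cell cannot be told apart.

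In females, 0 of 7 genes passed, where 1.81% of 18109 genes did. The log2 fold change was 0.26 ± 0.15 for *Grin2d* (95% interval -0.07 to 0.59) and -0.19 ± 0.11 for *Grin2a* (-0.44 to 0.07), with an adjusted p of 1.00 for each in edgeR's quasi-likelihood test with Benjamini-Hochberg adjustment. The remaining values were -0.03 for *Grin1*, -0.13 for *Grin2b*, 0.18 for *Grin2c*, -0.08 for *Grin3a* and 0.21 for *Grin3b*. The 95% intervals of *Grin1* (-0.23 to 0.17) and *Grin3a* (-0.28 to 0.11) were the narrowest. Both groups overlapped for all 7 genes, whereas 5.67% of the genes tested had groups that did not overlap. By the unadjusted p alone it was also 0 members, against 1.89% of all genes, and exactTest and DESeq2 called 0.

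In males, 0 of 7 genes passed either, with 2.99% of 18166 genes called. *Grin2b* came closest, with a log2 fold change of 0.40 ± 0.20 (95% interval -0.08 to 0.87, adjusted p = 1.00 in edgeR's quasi-likelihood test with Benjamini-Hochberg adjustment), against a median of -0.06 over all genes. *Grin2a* (0.17 ± 0.20) and *Grin3a* (0.09 ± 0.17) had positive values. *Grin1* (-0.15 ± 0.33), *Grin2c* (-0.38 ± 0.46), *Grin2d* (-0.15 ± 0.37) and *Grin3b* (-0.92 ± 0.68) had negative ones. The standard errors of these 4 genes in females were 0.09, 0.12, 0.15 and 0.45. The ranges overlapped for each member, while 8.86% of the genes tested had groups that did not overlap. Again 0 members had an unadjusted p under 0.05, and exactTest and DESeq2 called 0.

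The difference between the sexes was tested as an interaction (the male fold change less the female one). It called 0 of 7 members, with 2.94% of 19027 genes called, and DESeq2 called 0 too. The difference of log2 fold changes was 0.55 ± 0.26 for *Grin2b* (95% interval -0.03 to 1.12, adjusted p = 0.985 in edgeR's quasi-likelihood test with Benjamini-Hochberg adjustment). It was 0.38 ± 0.24 for *Grin2a*, 0.20 ± 0.19 for *Grin3a*, -0.11 ± 0.37 for *Grin1*, -0.55 ± 0.50 for *Grin2c*, -0.40 ± 0.43 for *Grin2d* and -1.12 ± 0.87 for *Grin3b*. In none of the 4 comparisons did any gene of the whole table reach an adjusted p under 0.05 with this test; exactTest gave 3 such genes in females and 1 in males, and DESeq2 3 in females.

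**Figure D2:**
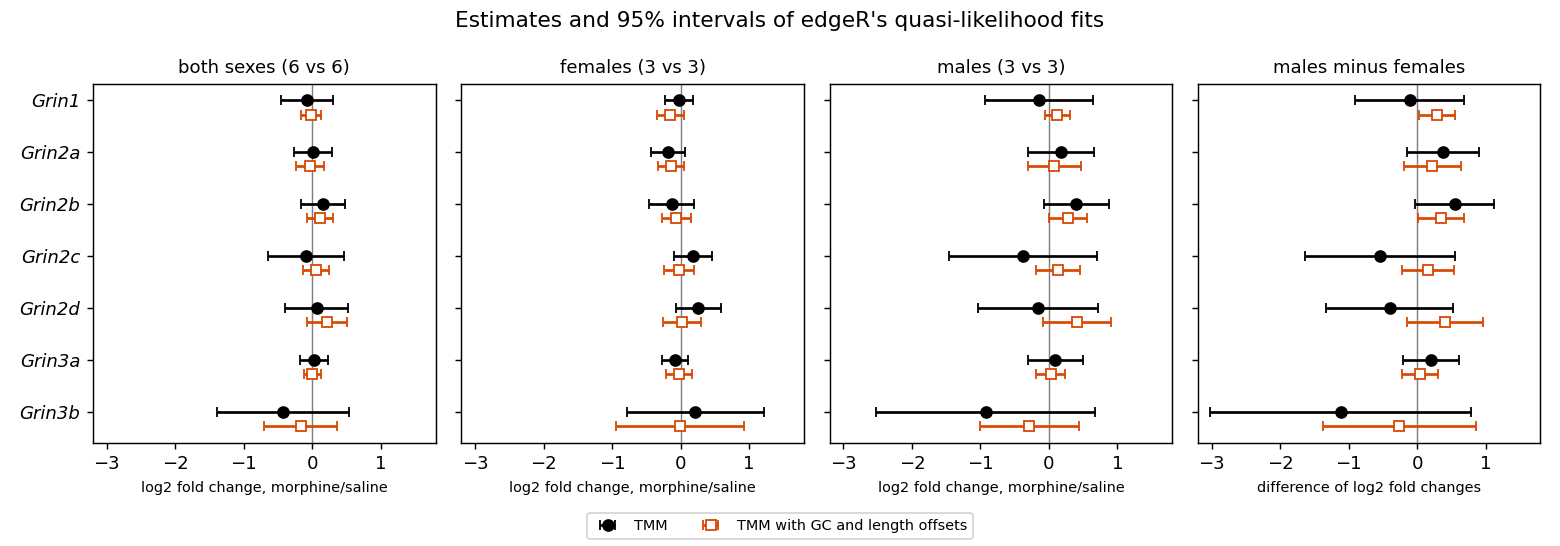
Log2 fold change of each gene with its 95% interval in the 3 comparisons of morphine with saline, and the difference between the sexes at the right, from edgeR's quasi-likelihood fits without (black) and with (orange) offsets for GC content and length. The black intervals all include 0, and in males that of Grin3b runs from -2.52 to 0.68.

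The 7 genes did not vary independently across libraries. Over the 12 libraries the Pearson correlation of log2 CPM lay between 0.83 and 0.92 for the 6 pairs of GC-rich members and between 0.72 and 0.90 for the 3 pairs of lower-GC members. For the 12 pairs of a GC-rich with a lower-GC member it lay between -0.92 and -0.52. These are descriptions over libraries that share their preparation, and they followed the GC trend of each library. The correlation of a gene's log2 CPM with the library's GC correlation was 0.92 for *Grin1*, 0.91 for *Grin2c*, 0.94 for *Grin2d* and 0.92 for *Grin3b*, and -0.91 for *Grin2a*, -0.73 for *Grin2b* and -0.83 for *Grin3a*. Other measures moved with this GC trend in part. Saline males 1 and 2 had the highest summed level of 84 ribosomal protein genes, 10308 and 9719 CPM against 6025 CPM in saline male 3, and of 6 oligodendrocyte markers, 57185 and 58756 CPM against 38305 CPM. The library labelled morphine male 6, with a GC correlation of 0.47, was an exception. Its sums were 7370 and 42414 CPM, below the 8046 and 48841 CPM of saline female 4, whose GC correlation was 0.05. All 6 oligodendrocyte markers were detected in each group. The part of these measures in the levels of the subunit genes was not tested.

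Offsets fitted per library as a smooth function of GC content and exon length were used to ask what remained of the pattern. The standard deviation of log2 CPM over the 12 libraries fell from 0.38 to 0.11 for *Grin1*, from 0.51 to 0.15 for *Grin2c*, from 0.41 to 0.31 for *Grin2d* and from 0.94 to 0.49 for *Grin3b*. For *Grin2a* it went from 0.23 to 0.19, for *Grin2b* from 0.27 to 0.17 and for *Grin3a* from 0.16 to 0.11. After the offsets, the correlations within the GC-rich members ranged from -0.59 to 0.36, those within the lower-GC members from 0.30 to 0.72, and those between the classes from -0.69 to 0.75. The correlation with the library trend was then -0.17 for *Grin1*, -0.95 for *Grin2a*, -0.64 for *Grin2b*, -0.28 for *Grin2c*, -0.78 for *Grin2d*, -0.36 for *Grin3a* and 0.69 for *Grin3b*. The offsets thus did not remove the trend from every gene, and for *Grin2d* they reversed it, from 0.94 to -0.78.

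**Figure D3:**
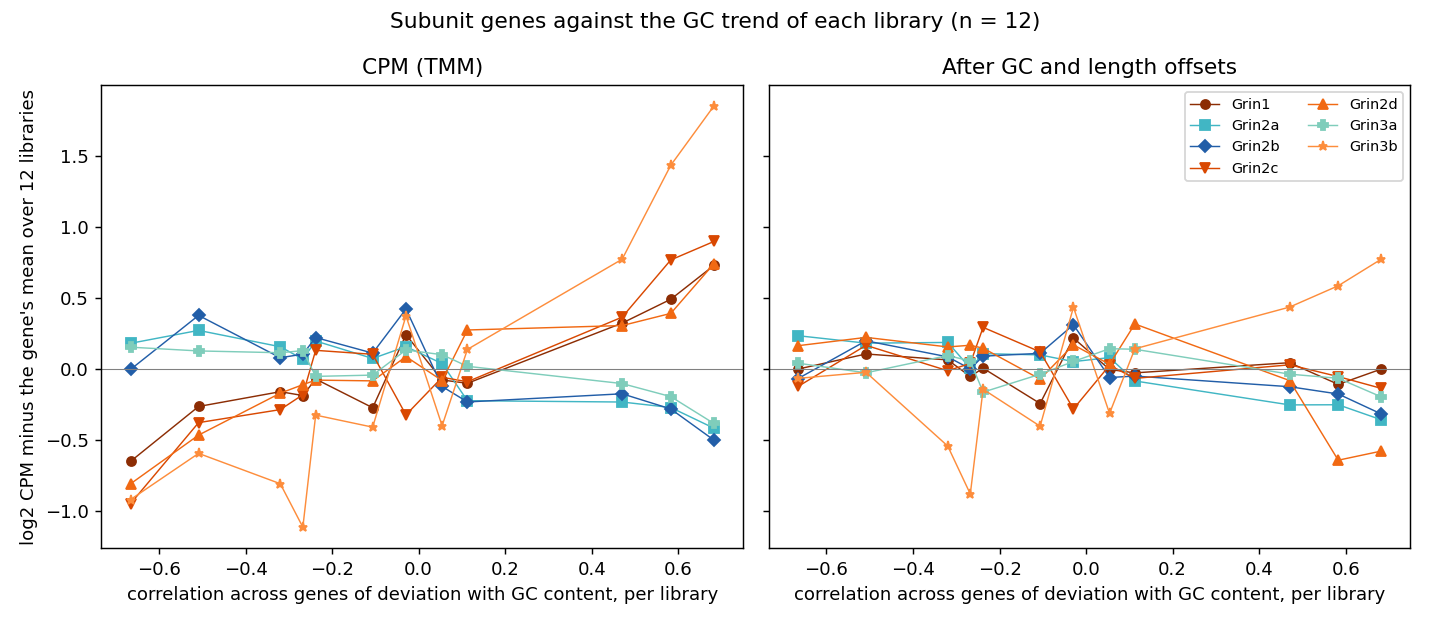
Each library's GC correlation (horizontal axis) against the log2 CPM of each gene minus its mean over the 12 libraries, before (left) and after (right) offsets for GC content and length; lines join the 12 libraries of a gene. Before the offsets the 4 GC-rich genes (brown and orange) rise from left to right and the 3 lower-GC genes (blue and green) fall.

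With these offsets, *Grin2b* passed the thresholds in males, with a log2 fold change of 0.28 ± 0.12 (95% interval 0.01 to 0.56, adjusted p = 0.450 in edgeR's quasi-likelihood test with Benjamini-Hochberg adjustment). The share of all genes called rose to 7.26% in the same fit. In the interaction, *Grin1* (0.29 ± 0.12, 95% interval 0.03 to 0.55) and *Grin2b* (0.34 ± 0.16, 0.01 to 0.68) passed, against 6.23% of all genes. The negative values of *Grin1*, *Grin2c* and *Grin2d* in males became 0.12, 0.13 and 0.40, none of which passed. The 0.40 of *Grin2d* was obtained with offsets that reversed its library trend. Its log2 CPM minus its mean went from 0.39 to -0.64 in saline male 1 and from 0.74 to -0.58 in saline male 2. In both sexes together and in females, 0 members passed with the offsets.

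The male comparison turned on which saline males were in it. Without saline male 3, all 7 of 7 genes passed the thresholds, and so did 28.6% of all genes. *Grin2a* (0.40), *Grin2b* (0.57) and *Grin3a* (0.29) were then higher in morphine males, and *Grin1* (-0.43), *Grin2c* (-0.74), *Grin2d* (-0.45) and *Grin3b* (-1.36) were lower. In that fit the adjusted p was 0.0393 for *Grin2c* and 0.0411 for *Grin3b* (edgeR's quasi-likelihood test with Benjamini-Hochberg adjustment), and it was 0.0528 or more for the other members. The interaction also called 7 of 7 without this mouse, where 24.1% of all genes were called. With saline male 3 left out and the offsets in place, a setting chosen after the data were seen, 3 members were called in males, *Grin2a* (0.28), *Grin2b* (0.35) and *Grin2d* (0.70), against 19.2% of all genes. *Grin2d* thus was lower in the fit without offsets and higher in the fit with them. Over the 12 libraries the offsets had reversed its library trend.

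When saline males 1 and 2 were left out together instead, which also was decided after the data were seen, the GC-rich genes turned the other way. *Grin1* was 0.79 higher on the log2 scale in morphine males, *Grin2c* 1.00 higher and *Grin2d* 0.89 higher, and these 3 passed, as did 31.1% of all genes. The value of *Grin3b* was 1.38, and those of *Grin2a* (-0.16), *Grin2b* (0.14) and *Grin3a* (-0.19) did not pass. That fit compares 3 mice with the single saline male 3, which is assumed to vary like the morphine males. In both sexes together, the same omission called *Grin2c* (0.45) and *Grin2d* (0.47), against 11.7% of all genes, and with the library labelled morphine male 6 left out as well it called the same 2 genes (0.37 and 0.41), against 9.25% of all genes.

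Of the 7 genes, *Grin2b* was the 1 with a positive value in males in every fit made, from 0.14 to 0.57. These fits reuse the same male mice. The share of all genes that kept a constant sign was not computed for comparison with *Grin2b*. Without the library labelled morphine male 6 its log2 fold change in males was 0.54 ± 0.20 and passed the thresholds (adjusted p = 1.00 in edgeR's quasi-likelihood test with Benjamini-Hochberg adjustment), against 2.47% of all genes. The interaction without that library was 0.69 ± 0.25 for *Grin2b* (adjusted p = 0.887 in the same test of edgeR), with 3.39% of all genes called. No other member was called without that library.

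**Figure D4:**
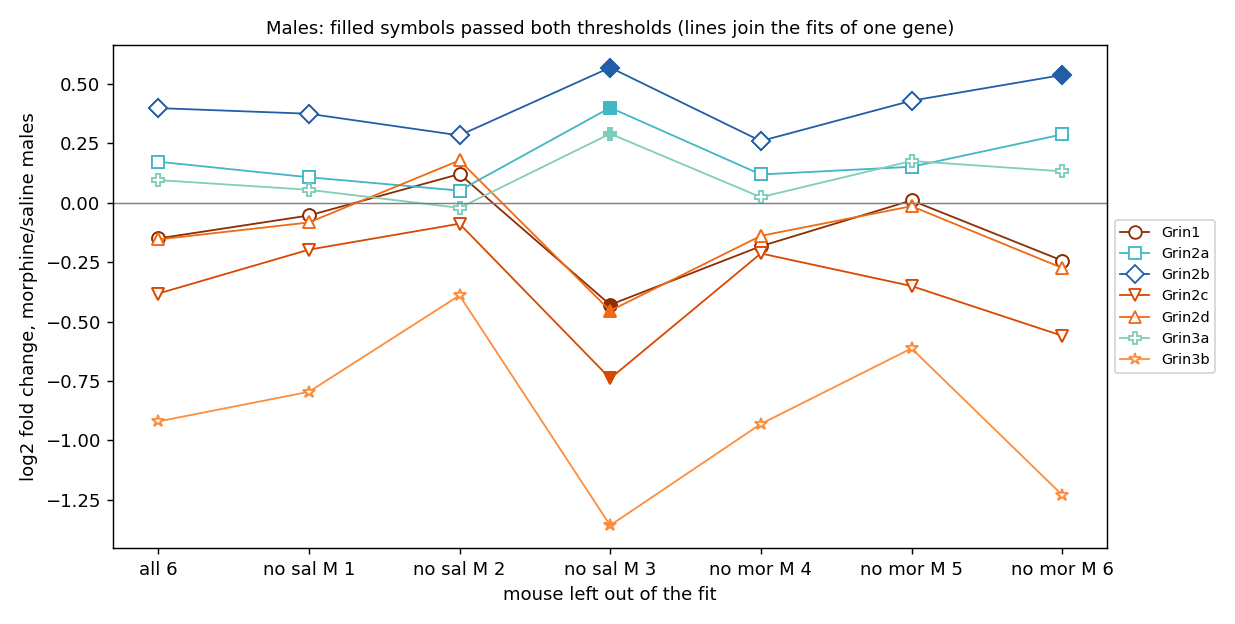
Log2 fold change of each gene in males with all 6 mice and with each mouse left out in turn; filled symbols passed both thresholds. All 7 symbols are filled without saline male 3, and Grin2b alone is filled without morphine male 6.

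A ratio of a pair of subunits within a library does not depend on the scaling of the library, and *Grin2a* and *Grin2b* differ little in GC content. The ratio of *Grin2a* to *Grin2b* per kilobase of exon had a correlation of -0.04 with the GC trend over the 12 libraries, given as a description. It was 1.30, 1.22 and 1.08 in saline females 4, 5 and 6, and 1.13, 1.13 and 1.17 in morphine females 1, 2 and 3. In saline males 1, 2 and 3 it was 1.17, 1.23 and 1.32, and in morphine males 4, 5 and 6 it was 0.966, 1.14 and 1.11. Each morphine male was below each saline male, whereas the female groups overlapped. The morphine males include the library labelled morphine male 6, whose sex genes went against its label. How often such ratios separate was not computed, and for the levels of single genes the share in males was 8.86%. The mean was 1.24 ± 0.0751 (SD, n = 3) in saline males and 1.07 ± 0.0945 (SD, n = 3) in morphine males. No test was made of this ratio, because it joins members of the family, and 3 mice against 3 could not have given a p under 0.1 by exact permutation.

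The ratio of *Grin1* to the sum of the 4 GluN2 genes per kilobase ran from 0.482 in saline male 3 to 0.845 in saline male 2. It was 0.564 ± 0.0517 in saline females, 0.555 ± 0.0633 in morphine females, 0.692 ± 0.188 in saline males and 0.655 ± 0.105 in morphine males (SD, n = 3 each), so the treatments differed by less than the spread of either group. *Grin2b* made up 14.4% to 31.7% of the summed GluN2 level across the 12 libraries.

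**Figure D5:**
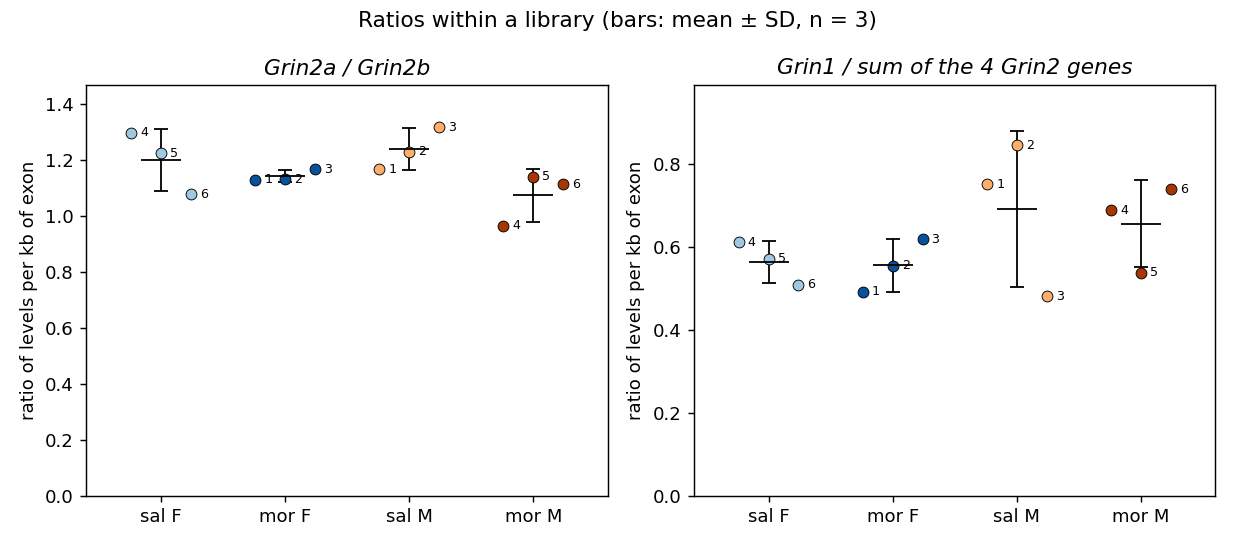
Ratios of levels per kilobase of exon within each library (linear axes from 0), with 1 point per mouse marked by its replicate number and bars for the mean ± SD of 3 mice. For Grin2a over Grin2b the morphine males (0.966 to 1.14) lie below the saline males (1.17 to 1.32), a separation that was not tested. For Grin1 over the GluN2 sum the groups overlap.

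Several members share exon bases with other genes, and whether the counting used strand is not stated in the sources used here, so the counts of such genes may not be separable. *Grin1os*, an antisense transcript, covers 13.47% of the exon bases of *Grin1*. Its level was 2.40, 3.23 and 1.01 CPM in the saline males and 3.59, 3.16 and 3.90 CPM in the morphine males. Its log2 fold change in males was 0.65 ± 0.40 (95% interval -0.29 to 1.58). With the offsets it was 0.87 ± 0.20 (0.41 to 1.34), which passed the thresholds, as did 7.26% of all genes. The exons of *Tmem259*, on the opposite strand, cover 32.13% of those of *Grin3b*, and at 31.9 ± 6.25 CPM in morphine and 38.1 ± 22.7 CPM in saline mice (SD, n = 6) it was far more abundant than *Grin3b*. The antisense gene *Gm45441* covers 9.66% of *Grin2d* and had 5 to 19 counts per library. *Gm26653*, which shares 49 bases with *Grin2b*, passed in females (log2 fold change -1.91 ± 0.76) and in the interaction (3.62 ± 1.18). Of all genes, 1.81% and 2.94% passed in these comparisons. Its counts were 97 in saline female 4, 68 in the library labelled morphine male 6 and 8 to 16 in the other libraries.

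Genes that act with the receptor were examined in 5 lists. In both sexes together, 0 of 13 genes of co-agonist supply, 0 of 19 scaffolds and anchors, 0 of 19 kinases, phosphatases and effectors, 0 of 9 genes of glutamate release, synthesis and uptake and 0 of 9 genes of GluN2B transport and repression passed. The medians of the lists lay between -0.03 and 0.03, against -0.02 over all genes. In males and in the interaction the lists likewise held 0 called genes. With the offsets, 1 scaffold and 1 gene of glutamate release, synthesis and uptake passed in males, against 7.26% of all genes, and 3 scaffolds, 2 genes of glutamate release, synthesis and uptake and 1 of co-agonist supply passed in the interaction, against 6.23%. In females 2 genes passed without the offsets, 1 of 13 in co-agonist supply and 1 of 19 scaffolds, where 1.81% of all genes passed. *Slc1a5*, a transporter of neutral amino acids, was lower, at 1.83 ± 0.348 CPM in morphine and 2.81 ± 0.333 CPM in saline females (SD, n = 3; log2 fold change -0.62 ± 0.23, adjusted p = 1.00 in edgeR's test with Benjamini-Hochberg adjustment). *Shank3*, a postsynaptic scaffold with a GC content of 62.1%, was higher, at 33.0 ± 1.53 against 26.3 ± 4.11 CPM (0.32 ± 0.12, adjusted p = 1.00 in the same test of edgeR), and did not pass with the offsets (0.14).

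Of the genes fixed for naming whatever their values, *Dlg4*, which encodes the scaffold PSD-95, had 190 ± 22.8 CPM in morphine and 203 ± 81.2 CPM in saline mice. *Camk2a*, the α subunit of CaMKII, had 89.0 ± 8.14 and 89.3 ± 12.2 CPM. *Slc17a6*, the vesicular glutamate transporter VGLUT2 that prevails in the brainstem, had 344 ± 30.3 and 358 ± 69.7 CPM. *Rest*, a repressor of neuronal genes that acts on *Grin2b*, had 20.6 ± 2.43 and 20.7 ± 3.03 CPM (SD, n = 6 each). The log2 fold changes of these 4 genes lay between -0.07 and -0.00320 in both sexes together, and none passed in any comparison.

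The genes whose log2 CPM was most like that of a member over the 12 libraries differed in GC content between the classes of members. It was 54.9% to 59.2% for those nearest the GC-rich members and 45.4% to 50.6% for those nearest the lower-GC members. For *Grin1* the genes most alike were *Usp19* and *Fgfr1*, for *Grin2c* *Slc25a29* and *Abcc10*, for *Grin2d* *Pde4a* and *Dus1l*, and for *Grin3b* *Slc19a1* and *Gtf2ird2*. For *Grin2a* they were *Adam22* and *Tmem178b*, for *Grin2b* *Nhsl2* and *Cacna1e*, and for *Grin3a* *Adam23* and *Jak1*. These Pearson correlations were between 0.95 and 0.99 among 19026 genes compared, as a description over 12 libraries. After the offsets they ranged from -0.15 for *Dus1l* with *Grin2d* to 0.89 for *Pde4a* with *Grin2d*. The 100 genes most like *Grin1* had a median GC content of 57.3%, and the 100 most like *Grin2a* had one of 44.0%.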

How the data were processed

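Poly-A RNA of 12 mouse brainstems was sequenced as 100 bp single-end reads on 1 lane. In the authors' pipeline, reads went through scruff and Trimmomatic, STAR placed them on mm10, and featureCounts assigned them to the exons of Ensembl's GRCm38 genes. The deposited table holds the resulting counts, which are whole numbers without normalization. The tissue label is brainstem, although the extraction protocol in the labels speaks of spinal cords. Treatment, sex and replicate number came from the labels. The dam, a covariate named by the authors, is not in the labels and was not used, and p values measure the spread between these mice only.

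Counts were tested with edgeR 4.0.16 (quasi-likelihood, R 4.3.3) after TMM normalization and filterByExpr, in both sexes (sex as a covariate), in females, in males, and as an interaction, with Benjamini-Hochberg adjustment over all genes tested. Thresholds were those of the authors (p of 0.05, log2 fold change of 0.26). Levels are CPM with TMM factors over the 12 libraries, with a prior count of 2 for logs. Exon lengths and GC content came from GENCODE M21, where every symbol was found, 115 of them for more than 1 gene. Offsets were loess curves (span 0.5). Total counts of 27850565 to 48097947 per library left *Grin3b* at 9 to 114 counts. Alternatives were exactTest, the Wald test and size factors of DESeq2 1.42.0, total counts, no filter or at least 10 counts in every library, the offsets, p alone, a replicate block, no sex covariate, an exact permutation test (pseudocount 0.5), contrasts from the fit of 12 mice, and leaving out each mouse. The scripts were tested on simulated data. The subunit genes, the lists and the tests were chosen with earlier results of these data known. Named genes are the 7 members, up to 4 called list genes with the smallest p per comparison, *Dlg4*, *Camk2a*, *Slc17a6* and *Rest*, genes over a member's exons, and the 2 genes most alike.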

Additional observations from a re-analysis of the deposited data

Results flagged for a closer look

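The ratio of *Grin2a* to *Grin2b* per kilobase was 0.966 in morphine male 4, apart from the other 5 morphine mice, which lay between 1.11 and 1.17. Its gap to the nearest of them was 0.738 of the range of the 6 values. In all, 16 groups were checked in this way, and chance alone singles out a sample in about 1 of 20 groups. This mouse had the highest *Grin2b* level of the 12 libraries (113 CPM), whereas its *Grin2a* level (78.5 CPM) was within the range of the saline mice.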

How the results depend on the processing

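Settings that leave out several mice, or join offsets with an omission, were chosen after the data were seen. In both sexes, 0 members were called in the planned settings and in each of 12 fits without 1 mouse, and 2 without saline males 1 and 2, with or without the library labelled morphine male 6. The replicate block called 0 members and 204 genes. Deviations of same-numbered mice had correlations of -0.34 to 0.18. Because these mice differ in sex and the labels do not give the dam, this cannot settle whether the numbers pair the mice. No other comparison could carry the block, because the treatments share no number within a sex. In females, 0 were called in every setting and without each mouse. In males, total counts, the offsets and the 12-mouse contrast each called 1, *Grin2b* (0.52, 0.28 and 0.42). Of all genes, 4.44%, 7.26% and 4.15% passed in these fits. The offsets without saline male 3 called 3, against 19.2% of all genes. Leaving out 1 mouse called 0 to 7, where 1.36% to 28.6% of all genes passed. In the interaction, total counts and no filter each called 1, against 3.68% and 4.44% of all genes, and the offsets called 2, against 6.23%. The offsets without saline male 3 called 4, against 15.9% of all genes. Leaving out 1 mouse called 0 to 7, where 1.49% to 24.1% of all genes passed. *Grin2b* was the 1 call without saline female 4 (0.63) or morphine male 6, against 4.89% and 3.39% of all genes. Total counts moved the median male fold change of all genes from -0.06 to 0.06, and the share of called genes that were higher from 64.3% to 91.3%. The number of all genes called moved by over 1.5 times under several settings, in males from 543 to 1319 with the offsets and 5341 without saline male 3.

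Some log2 fold changes changed sign. With the offsets they were, in both sexes *Grin2a* -0.032 and *Grin2c* 0.055, in females *Grin2c* -0.018 and *Grin3b* -0.011, in males *Grin1* 0.12, *Grin2c* 0.13 and *Grin2d* 0.40, in the interaction *Grin1* 0.29, *Grin2c* 0.16 and *Grin2d* 0.41. Without saline males 1 and 2 they were, in both sexes *Grin1* 0.24, *Grin2a* -0.16, *Grin2b* -0.022, *Grin2c* 0.45, *Grin3a* -0.10 and *Grin3b* 0.60, in males *Grin1* 0.79, *Grin2a* -0.16, *Grin2c* 1.00, *Grin2d* 0.89, *Grin3a* -0.19 and *Grin3b* 1.38, in the interaction *Grin1* 0.85, *Grin2c* 0.85, *Grin2d* 0.66, *Grin3a* -0.079 and *Grin3b* 1.19. Without these and the library labelled morphine male 6 they were, in both sexes *Grin1* 0.19, *Grin2a* -0.15, *Grin2b* -0.00725, *Grin2c* 0.37, *Grin3a* -0.11 and *Grin3b* 0.47. With the offsets and without saline male 3 they were, in males *Grin1* 0.15, *Grin2c* 0.13 and *Grin2d* 0.70, in the interaction *Grin1* 0.31, *Grin2c* 0.15 and *Grin2d* 0.70. Leaving out 1 mouse gave ranges that crossed 0, which were, in both sexes, *Grin1* -0.22 to 0.053, *Grin2a* -0.064 to 0.057, *Grin2c* -0.26 to 0.072, *Grin2d* -0.082 to 0.24 and *Grin3a* -0.040 to 0.066, in females *Grin1* -0.071 to 0.016, *Grin2b* -0.25 to 0.026 and *Grin3b* -0.16 to 0.52, in males *Grin1* -0.43 to 0.12, *Grin2d* -0.45 to 0.18 and *Grin3a* -0.022 to 0.29, in the interaction *Grin1* -0.44 to 0.16. The causes were not tested. With 3 mice per group, standard errors reached 0.68 in males, and *Grin3b* had as few as 9 counts.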
